A study of Mus musculus with 24 samples.

Results

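The endoplasmic reticulum (ER) folding and translocation genes described here are 33 mouse genes, taken by symbol from 3 count tables that each hold 55401 genes. They comprise 4 genes of the stress sensors and their transcription factor (Ern1, Atf6, Eif2ak3 and Xbp1), 11 chaperones and cochaperones, 4 disulfide isomerases, 7 genes of ER-associated degradation and 7 genes of the translocon and N-glycosylation. All libraries came from cultured pancreatic ductal adenocarcinoma (PDAC) cell lines of the mouse, in 11 groups. KPsh cells are known to carry a hairpin against Trp53, the gene of the transcription factor p53, that doxycycline switches on. For 10 days before harvest, the cells of 3 libraries had doxycycline at 1 µg/ml, which keeps p53 low, and those of another 3 had none, which lets p53 return. KPnull cells lack p53 and received an inducible vector that was empty or encoded wild-type p53 (p53WT), p53 mutant in its first (TAD1m) or second (TAD2m) transactivation domain, or p53 mutant in both (TAD12m). Each KPnull group had n = 2, and all were taken as having had doxycycline for 48 hours, although the series text also speaks of culture without it. The last 4 groups (n = 2 each) are KPsh cells whose Pcyt2 gene was edited with a guide (sgPcyt2) and the same edited cells rescued with a Pcyt2 cDNA that resists the guide, each with or without doxycycline over 6 days.

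The product of Pcyt2 synthesises CDP-ethanolamine on the route to phosphatidylethanolamine, a phospholipid of the ER membrane. All 4 of its groups carry the guide, so Pcyt2 loss was compared with cells that express the cDNA, not with unedited cells. The sources used here do not say whether the edited cells are a clone or a pool, or whether replicates came from separate cultures. The p-values thus rest on the spread among the libraries alone, and part or all of that spread may be technical.

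Proteins bound for secretion or for membranes enter the ER through the Sec61 channel, are glycosylated and folded there by chaperones and isomerases, and are returned to the cytosol for degradation if they fail to fold. When unfolded proteins build up, the unfolded protein response is switched on through the sensors IRE1 (Ern1), PERK (Eif2ak3) and ATF6. IRE1 splices the Xbp1 messenger RNA so that it encodes an active transcription factor, ATF6 is released from the membrane by cleavage, and PERK slows translation and favours ATF4. The sensors can also respond to the lipid makeup of the ER membrane. Counts per gene measure messenger RNA, and do not separate spliced from unspliced Xbp1 or show cleavage of ATF6 or phosphorylation of PERK.

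Many folding genes are known to carry an ER stress response element (ERSE) in their promoter, which ATF6 and spliced XBP1 can bind together with NF-Y. The element was searched as CCAAT, then any 9 bases, then CCACG, on both strands, from 250 bases before to 50 after the gene start in RefSeq promoters (GRCm38.p6). Of the 33 genes, 26 were found there, with 27 promoters. An ERSE match stood in 9 of these 27 promoters (33.3%), against 39 of all 32851 promoters (0.119%): those of Hspa5, Hsp90b1, Calr, Canx, Dnajc3, Creld2, Pdia6, Syvn1 and Derl3. The related ERSE-II, ATTGG, then any 1 base, then CCACG, matched in Dnajb11 and Herpud1 (7.41% of the promoters, against 0.0365% of all). It shares CCACG with the ERSE but no match of one overlapped a match of the other. TGACGTGG, the core of the unfolded protein response element, matched in 0 of the 27 promoters and in 222 of all (0.676%). The windows below show the matches of the main luminal chaperones, whose response differed between conditions, and of Herpud1, whose change on withdrawal differed most with and without the Pcyt2 cDNA, which was added after its values were seen. Capitals mark the 2 parts of each match, which read CGTGG and ATTGG where the element lies on the opposite strand.
Hspa5 (chr2:34772005-34772063, plus strand, bases −85 to −27 from the start): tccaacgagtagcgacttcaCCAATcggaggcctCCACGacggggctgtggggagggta
Hsp90b1 (chr10:86705513-86705676, minus strand, bases −232 to −69, with 2 matches): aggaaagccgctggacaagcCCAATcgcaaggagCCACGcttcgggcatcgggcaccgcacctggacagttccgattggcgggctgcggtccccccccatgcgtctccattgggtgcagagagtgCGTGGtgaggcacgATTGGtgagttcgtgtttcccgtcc
Calr (chr8:84847055-84847113, minus strand, bases −182 to −124): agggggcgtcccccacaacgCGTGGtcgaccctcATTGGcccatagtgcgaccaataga
Herpud1 (chr8:94386357-94386407, plus strand, bases −72 to −22, ERSE-II): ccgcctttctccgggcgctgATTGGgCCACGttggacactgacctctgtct

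Depth was 9398977 to 19436728 counts per library over the 24 libraries. Trp53 was at 20.3 to 21.7 CPM (counts scaled to a common library size) in the KPsh libraries on doxycycline and at 258 ± 5.85 CPM (SD, n = 3) off it. In KPnull cells Trp53 was at 5.33 ± 1.12 CPM (SD, n = 2) with the empty vector, and its group means with a p53 form lay between 527 and 668 CPM. In sgPcyt2 cells Pcyt2 was at 28.5 CPM with doxycycline and at 19.5 ± 2.55 CPM (SD, n = 2) without it. The rescued cells held 2612 and 2197 CPM, far above the 109 and 86.3 CPM of unedited KPsh cells, which come from another table. Markers of ductal and epithelial cells summed to between 5512 and 13054 CPM in every library, with Krt8 or Krt18 highest. Not every one of the 10 markers was present: Epcam was at most 1.38 CPM and Cldn4 at most 0.436 CPM in every library. Krt7 (at most 2.4 CPM) and Muc1 (at most 2.8 CPM) were near 0 in the Pcyt2 set, as Sox9 was in KPnull cells (at most 2.02 CPM). Fibroblast markers summed to at most 9.38 CPM, immune markers to 10.0 CPM, endothelial markers to 8.27 CPM, acinar markers to 4.8 CPM and endocrine markers to 0.0978 CPM. In bulk RNA, fewer cells of a kind and less RNA per cell cannot be told apart.

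Compared per length, the 33 genes covered a wide range of levels in every group. Their median lay between 25.9 CPM per kilobase, in the cells with the cDNA off doxycycline, and 47.1, in KPsh cells on it. The highest level belonged to Calr, a lectin chaperone, in 8 of the 11 groups, with 520 ± 11.1 CPM per kilobase (SD, n = 2) in the vector cells and 376 ± 28.8 (n = 3) in KPsh cells on doxycycline. In the other groups the isomerases P4hb or Pdia3 were first. In KPsh cells off doxycycline P4hb (400.2 ± 15.3, n = 3) was followed by Pdia3 (380.2 ± 10.0) and Calr (372 ± 13.1), and the last 2 lay closer together than their spread. Hspa5, the Hsp70 chaperone BiP, ranked 6th to 8th. The sensors Ern1 and Eif2ak3 were near the bottom in each group, at ranks 29 to 32. Derl3 was last in all 11 groups, under 1 CPM, and did not pass the filter on low counts in any table. The other 32 genes passed it in each table, with 5.32 CPM or more in every library, and counts below are of these 32.

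**Figure D1:**
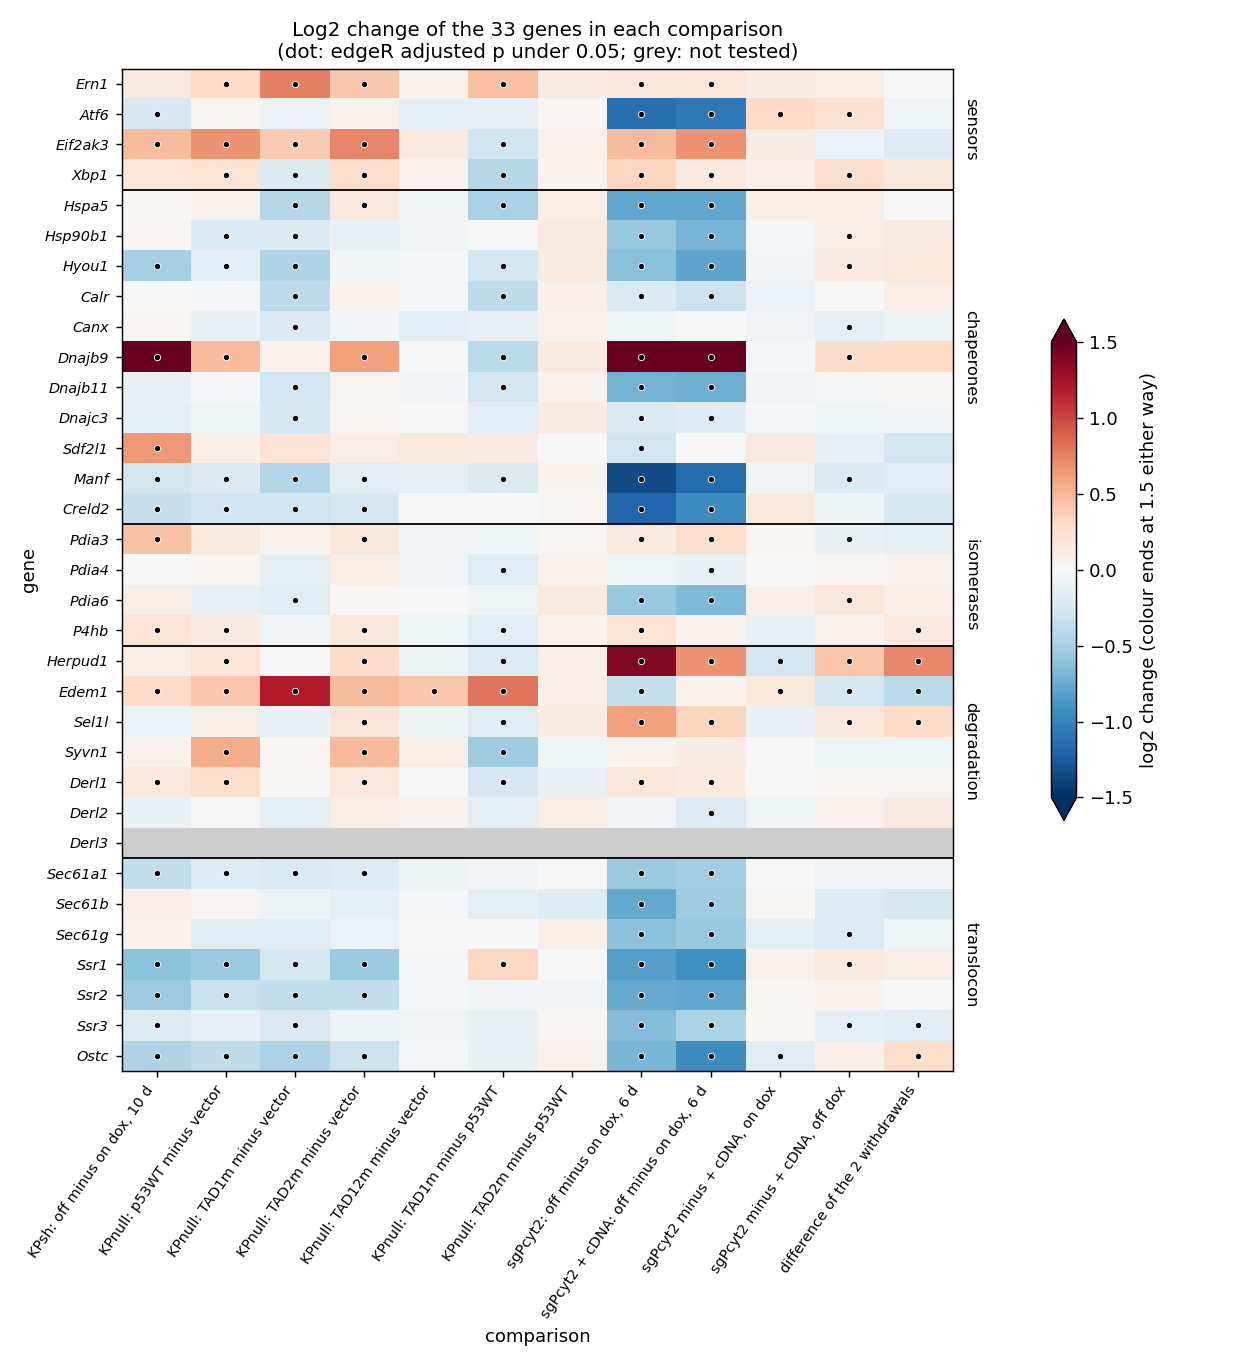
Log2 change of each of the 33 genes (rows, ordered by role) in each of the 12 comparisons (columns), as a colour scale. Dots mark genes with an edgeR adjusted p under 0.05, and Derl3 is grey because it was not tested. Most translocon rows are lower in the 3 withdrawal columns and in the p53WT, TAD1m and TAD2m columns. Dnajb9 changes apart from most chaperones around it.

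Withdrawal of doxycycline from KPsh cells asks which of these genes change when the drug is removed and p53 returns. The drug and p53 change together here and in the withdrawals of the Pcyt2 set, so their effects cannot be told apart. After 10 days, 7 of the 32 genes rose (21.9%) and 9 fell (28.1%) at an adjusted p under 0.05 in edgeR's quasi-likelihood test. Over all 13990 genes tested, 33.1% rose and 31.7% fell, so neither share of the 32 was above that background. Their median log2 change was 0.02, against 0.01 over all genes. The cochaperone Dnajb9 rose most, while of the 7 genes of the translocon and N-glycosylation 5 fell and none rose (median −0.37). Of 28 other translocation genes outside the 33, 13 rose and 7 fell (median 0.08). The isomerases Pdia3 and P4hb and the degradation factor Edem1 rose, and Hspa5 and Hsp90b1 did not pass the test.

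Among the sensors, Eif2ak3 (PERK) was at 29.5, 30.3 and 29.8 CPM off doxycycline and at 21.7, 19.4 and 23.1 CPM on it. All 3 libraries off the drug were higher, with a log2 change of 0.47 (SE 0.09, adjusted p = 8.9e-05). Atf6 moved the other way, at 79.1, 85.1 and 82.6 CPM off and 98.4, 100 and 93.3 CPM on doxycycline (log2 change −0.24, SE 0.06, adjusted p = 0.00164). The groups did not overlap for either gene. Ern1 (56.6, 50.5 and 51.2 CPM off, 43.7, 49.6 and 50.7 CPM on) had an adjusted p of 0.127 and overlapping groups. Xbp1 (45.7, 49.5 and 47.4 CPM off, 45, 42.8 and 38.4 CPM on) had an adjusted p of 0.0529, just above the threshold.

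Dnajb9, a J-domain cochaperone that binds BiP and IRE1, was at 16.7, 20.1 and 16.2 CPM off doxycycline against 6.48, 5.32 and 6.19 CPM on it. It was 2.92-fold higher without the drug (log2 change 1.55, SE 0.13, adjusted p = 1.39e-09), the largest change among the 32 genes. Sdf2l1, which works with BiP and the cochaperone Dnajb11, rose from 18.9, 21.9 and 19.6 CPM to 33.2, 27.9 and 33 CPM (0.65, SE 0.1, adjusted p = 4.17e-06). Hyou1, a nucleotide exchange factor of BiP, fell from 216, 223 and 228 CPM to 149, 161 and 162 CPM (−0.5, SE 0.06, adjusted p = 6.02e-08). Every library of these 3 genes lay on its own group's side. Manf and Creld2, small luminal proteins known as targets of ATF6, also fell, by 0.27 and 0.35. Hspa5 was at 732, 753 and 721 CPM off and 757, 705 and 716 CPM on doxycycline, with a change of 0.02 (SE 0.05, adjusted p = 0.771) and overlapping groups. Hsp90b1, the Hsp90 chaperone GRP94, lay between 793 and 916 CPM off and between 793 and 902 CPM on (adjusted p = 0.778).

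The signal-sequence receptor, or translocon-associated protein complex, helps nascent chains into the channel. Its subunit Ssr1 fell from 330, 321 and 320.3 CPM on doxycycline to 228, 216 and 192 CPM off it (−0.61, SE 0.06, adjusted p = 8.61e-09). Ssr2 fell from 212, 214 and 208 CPM to 153, 142 and 142 CPM (−0.54, SE 0.05, adjusted p = 1.49e-08). Both sets of values stood well apart. Sec61a1, the pore of the channel, fell from 380.4, 386 and 388 CPM to 295, 291 and 304 CPM (−0.37, SE 0.05, adjusted p = 1.32e-06). Ostc, a subunit of the oligosaccharyltransferase, fell by 0.45 and Ssr3 by 0.2, while Sec61b (0.08) and Sec61g (0.05), the small subunits of the channel, did not pass the test. Of the degradation genes, Herpud1 (66.3, 54.4 and 62.8 CPM off, 60.1, 60.6 and 52.5 CPM on) was not called (adjusted p = 0.361). Derl1 had an adjusted p of 0.0256, which rose to as much as 0.182 with DESeq2, with library totals, with the replicate block or without replicate 1 off or replicates 1 or 2 on doxycycline. The exons of Sec61a1 overlap a gene on the opposite strand over 17.3% of their bases, and those of Eif2ak3 over 10.7%. Since both strands were counted, their reads cannot be told apart from the partner's. For Hsp90b1 the overlapped share was 21.6%.

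In KPnull cells, wild-type p53 was compared with the empty vector after 48 hours. Here 9 of the 32 genes rose (28.1%) and 8 fell (25%), against 25.5% and 25.1% of the 15075 genes tested, with a median of 0.01 against −0.01. Ern1, Eif2ak3 and Xbp1 rose among the sensors, and 4 of 6 degradation genes rose with none lower. Of the 7 translocon genes, 4 fell and none rose (median −0.19). This comparison and that of KPsh cells share no library: 5 genes rose in both (71.4% of those higher in KPsh cells and 55.6% of those higher with p53WT), namely Eif2ak3, Dnajb9, P4hb, Edem1 and Derl1. Another 7 fell in both (77.8% and 87.5%), namely Hyou1, Manf, Creld2, Sec61a1, Ssr1, Ssr2 and Ostc, and 0 were called in opposite directions. Over all 13502 genes tested in both, the shares were 63.9% and 79.2% for the higher genes and 62.8% and 73.9% for the lower. Some of the 12 calls with p53WT were weak. P4hb (adjusted p = 0.0472) lost its call in 8 of 10 alternatives, up to an adjusted p of 0.179. Hyou1 lost it with DESeq2 and without replicate 1 of either group (up to 0.169), and Manf without replicate 2 of either group (up to 0.187).

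Eif2ak3 was at 45.9 and 45.2 CPM with p53WT against 28.3 and 28.9 CPM with the vector (log2 change 0.67, SE 0.08, adjusted p = 1.44e-06). Ern1 was at 61.8 and 59.9 CPM against 49.8 and 49.4 CPM (0.3, SE 0.06, adjusted p = 0.00102). Both p53WT libraries exceeded both vector libraries for each gene. Xbp1 was at 72.9 and 72.0 CPM against 64.7 and 60.5 CPM (0.21, adjusted p = 0.0143), a call lost without vector replicate 2 or p53WT replicate 1, up to an adjusted p of 0.0941. Atf6 (170.2 and 182 CPM against 174 and 171 CPM) overlapped between the groups. Among the chaperones, Hspa5 (656 and 638 CPM against 649.9 and 592 CPM) also overlapped (adjusted p = 0.431). Hsp90b1 fell from 852 and 794 CPM to 697 and 708 CPM (−0.23, SE 0.05, adjusted p = 0.00184), and Dnajb9 rose from 22.3 and 19.8 CPM to 30.9 and 28 CPM (0.48, SE 0.12, adjusted p = 0.00331).

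Edem1, a mannosidase-like protein that marks misfolded glycoproteins for export, was at 101 and 104 CPM with p53WT and at 79.4 and 76.3 CPM with the vector (0.4, SE 0.06, adjusted p = 2.76e-05). Syvn1, the ubiquitin ligase HRD1 of ER-associated degradation, was at 76.6 and 70.7 CPM against 43.5 and 56.7 CPM (0.56, SE 0.12, adjusted p = 0.00228). The 2 vector libraries of Syvn1 differed more from each other than those of Edem1, and neither reached the p53WT libraries. Herpud1 (182 and 169 CPM against 142 and 164 CPM) had an adjusted p of 0.0243 that rose to 0.315 among the alternatives, losing the call with library totals and without replicate 1 of either group. Ssr1 fell from 273 and 255 CPM to 179 and 178 CPM (−0.56, SE 0.05, adjusted p = 2.54e-07), and Ostc from 150.4 and 135 CPM to 111 and 108 CPM (−0.38, SE 0.06, adjusted p = 0.000119). Sec61a1 was at 323 and 326 CPM against 362 and 379 CPM (−0.19), a call lost without vector replicate 2 (adjusted p = 0.0654).

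The transactivation mutants were compared to ask which domain of p53 these changes need. The comparisons with the vector share its 2 libraries, so the mutants were also tested against p53WT directly. With TAD12m, mutant in both domains, 1 of 32 genes rose (3.12%) and 0 fell, against backgrounds of 2% and 1.85%. DESeq2 also called 1 gene, and 2 genes had an unadjusted p under 0.05. The called gene was Edem1, at 105 and 103 CPM against 79.4 and 76.3 CPM with the vector (0.42, SE 0.06, adjusted p = 0.000371). Ern1 (52.8 and 49.9 CPM), Eif2ak3 (31.9 and 31.1 CPM), Hspa5 (592 and 599 CPM), Dnajb9 (24.2 and 17.9 CPM), Ssr1 (265 and 253 CPM) and Sec61a1 (337 and 365 CPM) did not pass the test in TAD12m cells.

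With TAD2m, 12 of 32 genes were higher than with the vector (37.5%) and 6 lower (18.8%), against 24.9% and 24.2% of all genes. Without TAD2m replicate 2 the count of called genes fell from 18 to 11. Eif2ak3 was at 49.7 and 45.2 CPM (0.73, SE 0.08, adjusted p = 5.79e-07), Dnajb9 at 31.5 and 33.3 CPM (0.62, SE 0.12, adjusted p = 0.00047) and Edem1 at 106 and 111 CPM (0.47, SE 0.06, adjusted p = 4.28e-06). All these values lay above both vector libraries. Ssr1, at 178 and 180.1 CPM (−0.56, SE 0.05, adjusted p = 2.92e-07), and Ssr2, at 198 and 207 CPM (−0.37), lay below them. Hspa5, at 674 and 702 CPM, had an adjusted p of 0.048 that reached 0.332 without vector replicate 2 and lost the call in 5 of 10 alternatives. Tested against p53WT itself, 0 of the 32 genes differed in TAD2m cells in edgeR, against 0.199% of all genes higher and 0.0862% lower. DESeq2 also called 0, and 3 genes (Hsp90b1, Hyou1 and Pdia6) had an unadjusted p under 0.05. The differences from p53WT ranged from −0.19 to 0.14 on the log2 scale.

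**Figure D2:**
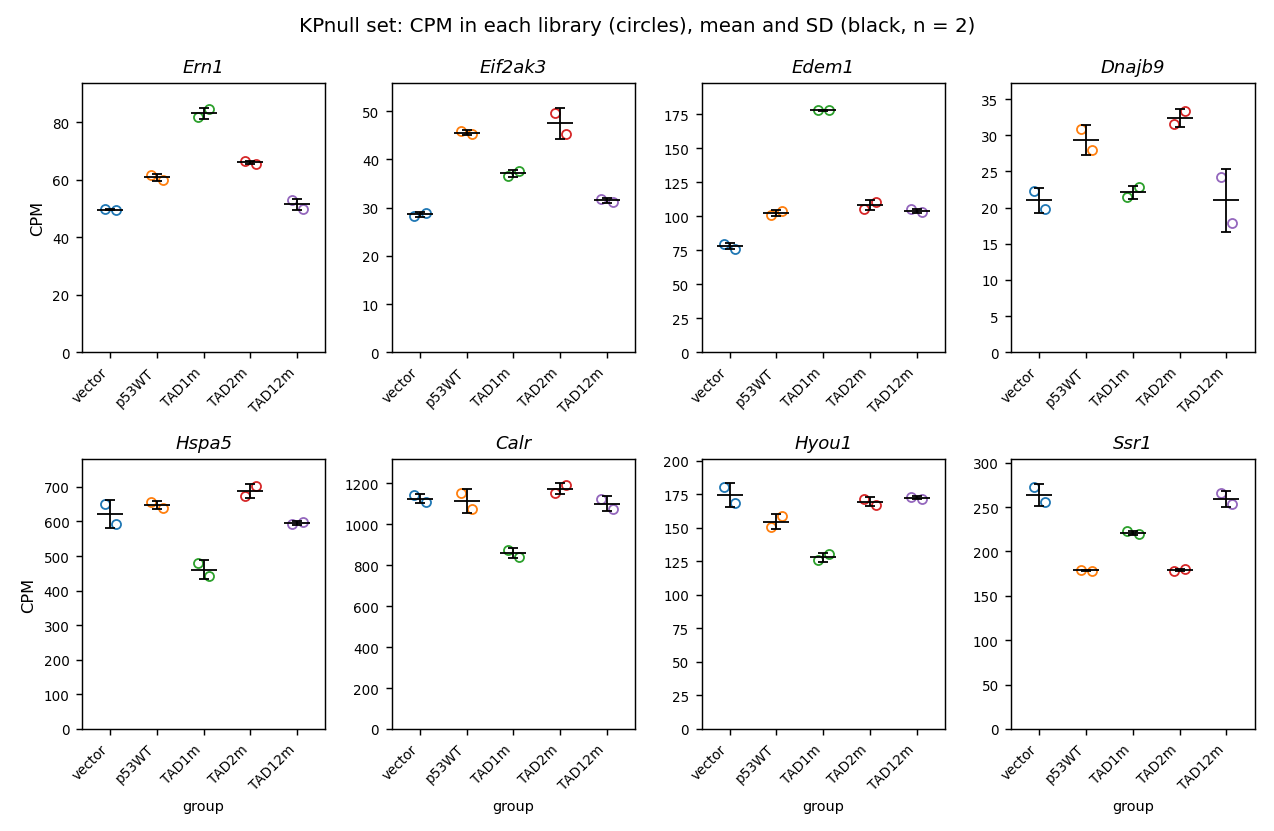
CPM of Ern1, Eif2ak3, Edem1, Dnajb9, Hspa5, Calr, Hyou1 and Ssr1 (1 panel each, linear axis from 0) in the 10 KPnull libraries, by p53 form; circles are libraries and black bars the mean and SD (n = 2). In TAD1m cells Edem1 is at 178 CPM in both libraries and Hspa5 at 480 and 441 CPM, apart from all other forms.

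TAD1m gave another pattern than p53WT. Against the vector, 3 of 32 genes rose (9.38%) and 16 fell (50%), where 19% and 17.5% of all genes did, and the median was −0.18 against −0.01. Of the 11 chaperones, 9 fell and none rose (median −0.29), and 5 of 7 translocon genes fell (median −0.23). Ern1, Eif2ak3 and Edem1 rose. Tested directly against p53WT, 3 genes were higher in TAD1m cells (9.38%) and 14 lower (43.8%), against 20.4% and 18.7% of all genes, with a median of −0.13 against 0.02. Of those, 6 lower genes were chaperones and 4 degradation genes.

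Hspa5 was at 480.4 and 441 CPM in TAD1m cells, below every other KPnull library, which held 592 to 702 CPM. Its log2 difference was −0.43 from the vector (SE 0.06, adjusted p = 2.71e-05) and −0.49 from p53WT (SE 0.06, adjusted p = 5.82e-06). Calr, at 876 and 842 CPM, was also below all other groups, which held 1074 to 1194 CPM. It differed by −0.39 from the vector (SE 0.05, adjusted p = 3.22e-05) and by −0.38 from p53WT (SE 0.05, adjusted p = 4.07e-05). Hyou1 (126 and 130.4 CPM) differed by −0.45 and −0.27, and Manf (65.5 and 65.1 CPM) by −0.44 and −0.22, from the vector and p53WT in turn. The difference of Manf from p53WT lost its call in 4 of 9 alternatives, up to an adjusted p of 0.262. Hsp90b1, at 721 and 695 CPM, was 0.22 below the vector on the log2 scale, a call lost without TAD1m replicate 2 (adjusted p = 0.054), and 0.01 from p53WT.

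Edem1 was at 178 CPM in both TAD1m libraries, 2.29-fold its vector level (log2 1.19, SE 0.06, adjusted p = 1.22e-10) and 0.8 above p53WT (SE 0.06, adjusted p = 1.45e-08). Ern1, at 81.7 and 84.5 CPM, was also highest in TAD1m cells, 0.75 above the vector (SE 0.06, adjusted p = 1.09e-07) and 0.45 above p53WT (SE 0.06, adjusted p = 2.45e-05). Its next highest KPnull library held 66.4 CPM. Xbp1, at 52.2 and 55.2 CPM, was lowest in TAD1m cells and 0.43 below p53WT (SE 0.07, adjusted p = 7.38e-05), so that the messages of IRE1 and of its substrate differed from p53WT in opposite directions. Eif2ak3, at 36.6 and 37.6 CPM, stood between the vector and p53WT, and differed from both by 0.38 and −0.3. Dnajb9 (21.5 and 22.8 CPM) was 0.41 below p53WT, a call lost without replicate 1 of either group (adjusted p up to 0.116). Syvn1 (50.2 and 51.8 CPM) was 0.53 below p53WT (SE 0.12, adjusted p = 0.00462). Herpud1, at 149.5 and 156 CPM, was 0.2 below p53WT, a call lost in 4 of 9 alternatives (adjusted p up to 0.213). Ssr1, at 223 and 219.7 CPM, lay between the 2 groups, with a difference of −0.26 from the vector and 0.31 from p53WT (SE 0.05, adjusted p = 0.000265). Sec61a1, at 312 and 320.5 CPM, was 0.23 below the vector. Atf6 (159 and 164 CPM) was called against neither.

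In the Pcyt2 set, withdrawal of doxycycline for 6 days moved most of the 32 genes, with and without the cDNA. In sgPcyt2 cells 9 rose (28.1%) and 19 fell (59.4%), against 39.2% and 37.1% of the 14916 genes tested, with a median of −0.32 against 0.02. In the cells with the cDNA 8 rose (25%) and 19 fell (59.4%), against 37.3% and 36.3%, with a median of −0.26 against 0.02. These withdrawals share no library. Of the genes that rose, 8 were shared, 88.9% of those in sgPcyt2 cells and 100% of those with the cDNA. Of those that fell 17 were shared, 89.5% of each list, and 0 were called in opposite directions. Over all genes tested, the shared calls made up 81.1% and 85.3% of the higher genes and 84.6% and 86.4% of the lower, in the same order. All 7 translocon genes fell in both, with log2 changes of −0.83 to −0.56 in sgPcyt2 cells and −0.94 to −0.47 with the cDNA. Of the 11 chaperones, 9 fell without the cDNA and 8 with it, and only Dnajb9 rose in either. The 9 genes that fell in unedited KPsh cells after 10 days fell here too. They were 100% of those genes and 47.4% of the 19 that fell in each edited set. Over all genes tested in both, these shares were 66.9% and 54.3% for sgPcyt2 cells and 73.6% and 60.6% with the cDNA. Of the 7 genes higher in unedited cells, 5 rose in sgPcyt2 cells (71.4%, and 55.6% of the 9 there). With the cDNA 4 rose (57.1%, and 50% of the 8 there). Over all genes, the higher shares were 64.6% and 53.6%, and with the cDNA 72.6% and 62.8%. Sdf2l1 and Edem1, higher in the unedited cells, fell in sgPcyt2 cells. Trp53 rose 12.3-fold in the unedited cells, 2.0-fold in sgPcyt2 cells and 4.64-fold with the cDNA, and the sets differ in days and in tables.

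Among the sensors, Atf6 fell most, from 89.0 and 98.1 CPM to 41.6 and 43.6 CPM in sgPcyt2 cells (−1.13, SE 0.06, adjusted p = 1.41e-21). With the cDNA it fell from 77.1 and 75.3 CPM to 36.1 and 36.7 CPM (−1.07, SE 0.06, adjusted p = 6.78e-20). Per length it dropped from rank 28 to rank 32 of the 33 genes in sgPcyt2 cells, below Ern1 and Eif2ak3. Eif2ak3 rose, from 24.8 and 23.2 CPM to 34.5 and 32.1 CPM without the cDNA (0.47, adjusted p = 2.9e-06) and from 24.0 and 20.7 CPM to 35.4 and 35.7 CPM with it (0.67, adjusted p = 1.16e-09). Xbp1 rose from 51.0 and 47.5 CPM to 64.6 and 58.2 CPM in sgPcyt2 cells (0.32, SE 0.07, adjusted p = 2.58e-05). With the cDNA, Xbp1 was at 47.4 and 46.2 CPM on and 49.6 and 53.8 CPM off doxycycline (0.15, adjusted p = 0.0457, up to 0.303 in the alternatives, with 5 of 9 losing the call). Ern1 rose by 0.17 and 0.18. Its call was lost with DESeq2 or without replicate 1 on or off doxycycline in sgPcyt2 cells (adjusted p up to 0.257), and without replicate 2 on it with the cDNA (0.0661).

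Hspa5 fell from 597 and 609 CPM to 340 and 364 CPM in sgPcyt2 cells and from 579 and 555 CPM to 330 and 330.0 CPM with the cDNA. Both changes were −0.78 (SE 0.04), with adjusted p-values of 2.38e-22 and 2.44e-22, a level 1.71-fold lower off the drug in sgPcyt2 cells. In unedited KPsh cells after 10 days the same gene had changed by 0.02. Hsp90b1 fell from 770 and 835 CPM to 538 and 542 CPM (−0.57, SE 0.04, adjusted p = 1.26e-17), and with the cDNA from 833 and 804 CPM to 499 and 507 CPM (−0.7). Manf, which binds BiP and can be secreted, fell from 103 and 102 CPM to 40.1 and 41.4 CPM (−1.34, SE 0.06, adjusted p = 8.56e-25) and with the cDNA from 110.0 and 103 CPM to 49.0 and 46.0 CPM (−1.16, SE 0.06, adjusted p = 4.59e-23). Creld2 fell from 64.2 and 66.6 CPM to 28.4 and 29.1 CPM in sgPcyt2 cells (−1.19) and by 0.94 with the cDNA. Calr, the most abundant chaperone per length, fell by only 0.22 and 0.32. Dnajb9 ran opposite to most other chaperones, from 10.5 and 10.9 CPM to 43.4 and 43.1 CPM in sgPcyt2 cells (2.01, SE 0.09, adjusted p = 3.24e-24) and from 10.5 and 11.2 CPM to 36.3 and 35 CPM with the cDNA (1.71, SE 0.09, adjusted p = 3.37e-21). Those rises are 4.04-fold and 3.28-fold, and per length they took it from rank 32 to ranks 24 and 25.

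**Figure D3:**
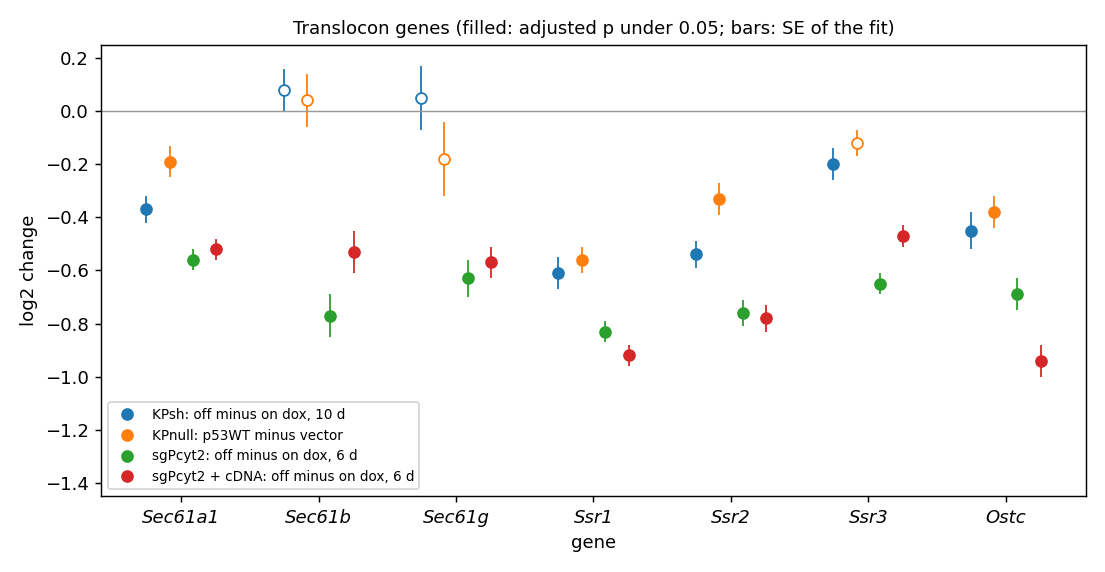
Log2 changes, with standard errors, of the 7 translocon and glycosylation genes in 4 comparisons: withdrawal of doxycycline in unedited KPsh cells, p53WT against the vector, and withdrawal in sgPcyt2 cells without and with the cDNA; filled points have an adjusted p under 0.05. All 7 lie between −0.94 and −0.47 in the edited cells, while Sec61b and Sec61g lie near 0 in unedited KPsh cells.

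At the translocon, Sec61a1 fell from 312 and 319 CPM to 212 and 215 CPM in sgPcyt2 cells (−0.56, SE 0.04, adjusted p = 1.7e-17) and from 321 and 315 CPM to 223 and 219.8 CPM with the cDNA (−0.52). Sec61b fell from 53.5 and 43.4 CPM to 28.3 and 28.5 CPM (−0.77, SE 0.08, adjusted p = 1.98e-11), with a wide gap between its replicates on doxycycline, and by 0.53 with the cDNA. Ssr1 fell from 260.4 and 264 CPM to 145 and 149.7 CPM (−0.83, SE 0.04, adjusted p = 5.66e-23), and with the cDNA from 252 and 251 CPM to 133 and 133 CPM (−0.92, SE 0.04, adjusted p = 1.91e-24). In each of these genes every library off doxycycline was below every library on it.

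The ERSE search divides the 32 tested genes into 8 with a match, 17 without one and 7 whose promoter was not found in the table (Atf6, Hyou1, Manf, Derl1, Sec61a1, Ssr2 and Ostc). The 17 include Dnajb11 and Herpud1, which have a match of the related ERSE-II. In both withdrawals of the edited cells, 0 of the 8 rose and 6 fell, with medians of −0.4 in sgPcyt2 cells and −0.49 with the cDNA. Of the 17, 8 rose and 7 fell (median −0.05), and with the cDNA 7 rose and 7 fell (median 0.05). Of the 7 not searched, 1 rose and 6 fell in each, with medians of −0.69 and −0.79. Over all genes, 39.2% rose and 37.1% fell in sgPcyt2 cells, and 37.3% rose and 36.3% fell with the cDNA. In TAD1m cells against the vector, 7 of the 8 genes with a match fell and 0 rose (median −0.23). Of the 17, 4 fell and 3 rose (median −0.08), and of the 7 not searched 5 fell and 0 rose (median −0.37). Of all genes, 17.5% fell and 19% rose there. Against p53WT, 3 of the 8 were lower in TAD1m cells and 0 higher (median −0.15), beside 8 of the 17 lower and 3 higher (median −0.13). Of the 7 not searched, 3 were lower and 0 higher (median −0.12). Of all genes, 18.7% were lower and 20.4% higher. In unedited KPsh cells, 1 of the 8 fell and 0 rose (median 0.02), against 31.7% and 33.1% of all genes. There 2 of the 17 fell and 6 rose (median 0.09), and of the 7 not searched 6 fell and 1 rose (median −0.37). With p53WT 1 of the 8 was higher than with the vector and 2 lower (median −0.09), against 25.5% and 25.1%. Of the 17, 7 were higher and 1 lower (median 0.09), and of the 7 not searched 1 was higher and 5 lower (median −0.19). With TAD2m 2 of the 8 were higher and 1 lower (median 0.03), against 24.9% and 24.2%. Of the 17, 9 were higher and 1 lower (median 0.17), and of the 7 not searched 1 was higher and 4 lower (median −0.17).

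Loss of Pcyt2 was tested by comparing sgPcyt2 cells with the same cells carrying the cDNA, on doxycycline and off it. The cDNA cells held Pcyt2 far above unedited KPsh cells, so its loss and its excess cannot be told apart in these differences. On the drug, where p53 is low, 2 of the 32 genes were higher (6.25%) and 2 lower (6.25%), against 8.4% and 10% of all genes, with a median of −0.01 against −0.02. With DESeq2, without sgPcyt2 replicate 1 on doxycycline or without replicate 1 of the cDNA cells on it, 2 genes were called. Atf6 and Herpud1 kept their call in every alternative. Atf6 was at 89.0 and 98.1 CPM without and 77.1 and 75.3 CPM with the cDNA (0.3, SE 0.06, adjusted p = 7.38e-05). Herpud1, a membrane protein that joins the HRD1 ligase complex to its substrates, was lower, at 42.9 and 40.0 CPM against 50 and 51.6 CPM (−0.29, SE 0.07, adjusted p = 0.000952). The groups did not overlap for either gene. Edem1 (89.3 and 90.7 CPM against 77.7 and 83.3 CPM; 0.16, adjusted p = 0.0284, up to 0.31 among alternatives) and Ostc (76.6 and 81.1 CPM against 88.1 and 89.8 CPM; −0.18, adjusted p = 0.0182, up to 0.191) were called less firmly. Hspa5, at 597 and 609 CPM against 579 and 555 CPM, was not called (0.09, adjusted p = 0.113), and no chaperone or isomerase was.

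Off doxycycline, 9 of the 32 genes were higher in sgPcyt2 cells (28.1%) and 6 lower (18.8%), against 16.3% and 16.8% of all genes, with a median of 0.03 against 0.01. The differences were small, from −0.26 to 0.42. The 15 calls fell to 9 without sgPcyt2 replicate 2 off doxycycline, and to 7 and 8 without replicates 1 and 2 of the cDNA cells off it. Canx, Edem1, Herpud1 and Ssr3 were called in every alternative. Trp53 differed between these groups too, at 41.9 ± 0.317 CPM without and 92.0 ± 7.36 CPM with the cDNA (SD, n = 2; −1.13, SE 0.07, adjusted p = 5.93e-19), while on doxycycline it was at 20.9 ± 2.49 and 19.8 ± 0.646 CPM. Its part in the differences off doxycycline was not tested.

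**Figure D4:**
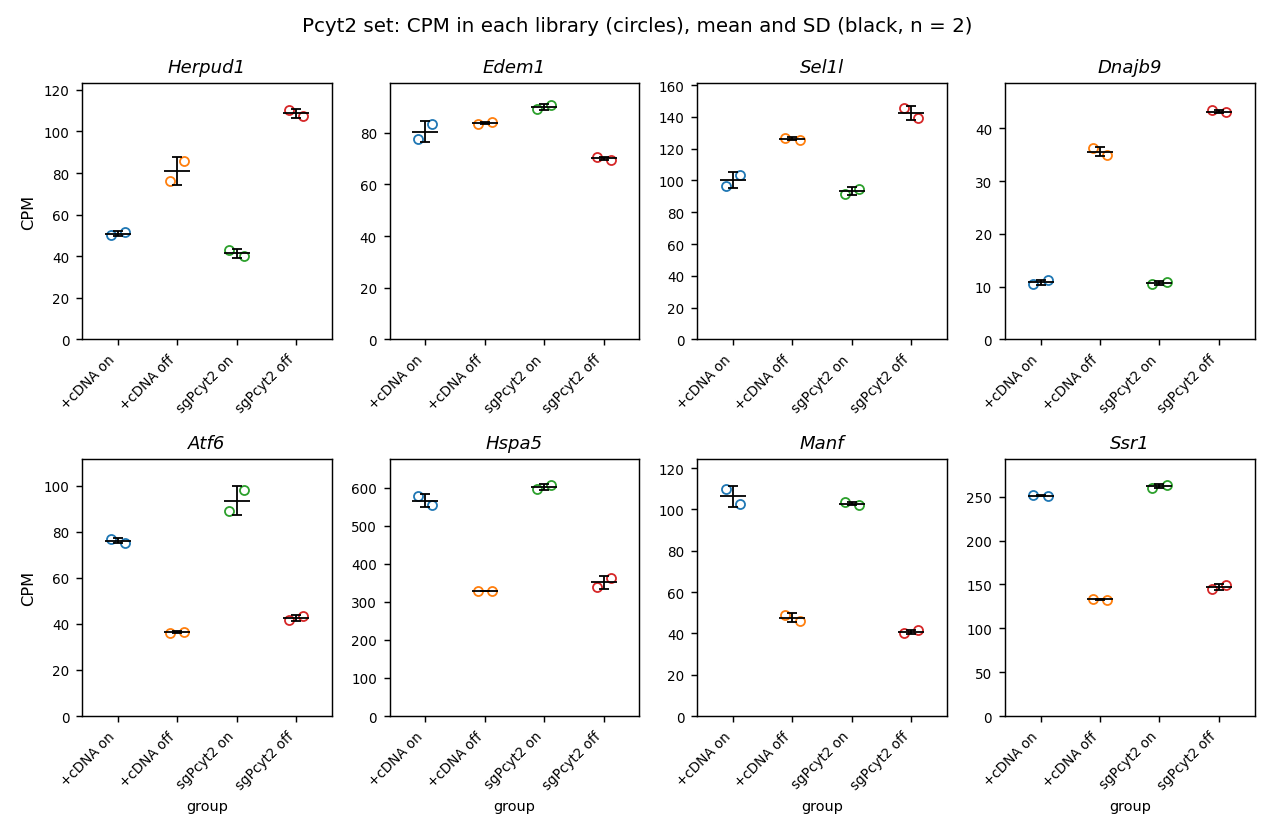
CPM of Herpud1, Edem1, Sel1l, Dnajb9, Atf6, Hspa5, Manf and Ssr1 (1 panel each, linear axis from 0) in the 8 libraries of the Pcyt2 set; circles are libraries and black bars the mean and SD (n = 2). Herpud1 is highest, at 110.1 and 107 CPM, in sgPcyt2 cells off doxycycline, where Edem1 is lowest, at 70.5 and 69.6 CPM; Hspa5 differs by doxycycline and little by cDNA.

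Herpud1 (chromosome 8, 94386438 to 94395377, plus strand, mm10) was at 110.1 and 107 CPM in sgPcyt2 cells off doxycycline and at 76.2 and 85.8 CPM with the cDNA. The log2 difference was 0.42 (SE 0.06, adjusted p = 2.6e-08). On the drug the order was the reverse, as given above. Edem1 (chromosome 6, 108828641 to 108859356, plus strand) was at 70.5 and 69.6 CPM against 83.4 and 84.0 CPM (−0.26, SE 0.05, adjusted p = 0.000196), also with the reverse order on doxycycline. Sel1l (chromosome 12, 91806043 to 91849157, minus strand), the adaptor that holds HRD1 together with its substrates, was at 146 and 139 CPM against 127 and 126 CPM (0.17, SE 0.05, adjusted p = 0.00323). Leaving out sgPcyt2 replicate 1 brought its adjusted p to 0.05. Of the 6 degradation genes tested, then, 2 were higher (33.3%) and 1 lower (16.7%) in sgPcyt2 cells. Of all genes, 16.3% were higher and 16.8% lower.

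Of the sensors, Xbp1 was at 64.6 and 58.2 CPM in sgPcyt2 cells off doxycycline and 49.6 and 53.8 CPM with the cDNA (0.25, SE 0.06, adjusted p = 0.002), and lost its call without replicate 1 of either group (up to 0.109). Atf6 was at 41.6 and 43.6 CPM against 36.1 and 36.7 CPM (0.23, adjusted p = 0.00933), a call lost with DESeq2, without sgPcyt2 replicate 2 and without replicate 1 of the cDNA cells (up to 0.0916). Ern1 (67.3 and 62.1 CPM against 60.2 and 60.4 CPM) and Eif2ak3 (34.5 and 32.1 CPM against 35.4 and 35.7 CPM) were not called. Among the chaperones, Dnajb9 was at 43.4 and 43.1 CPM against 36.3 and 35 CPM (0.28, SE 0.07, adjusted p = 0.00283), with the call lost in DESeq2 and without replicate 2 of the cDNA cells (up to 0.0571). Manf was lower, at 40.1 and 41.4 CPM against 49.0 and 46.0 CPM (−0.22, adjusted p = 0.00703, up to 0.101 without replicate 1 of either group). Canx, the membrane-bound partner of Calr, was at 576 and 570.0 CPM against 628 and 629.5 CPM (−0.13, SE 0.04, adjusted p = 0.00519). Hspa5 (340 and 364 CPM against 330 and 330.0 CPM) was not called (0.09, adjusted p = 0.0759). Hsp90b1 (538 and 542 CPM against 499 and 507 CPM) had an adjusted p of 0.0427, and 6 of 9 alternatives lost the call.

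Pdia6, an isomerase that can bind and attenuate IRE1, was at 186 and 212 CPM in sgPcyt2 cells and 180.5 and 172 CPM with the cDNA (0.17, adjusted p = 0.0033, up to 0.325 without replicate 2 of either group). Its sgPcyt2 libraries were 1 near the cDNA cells and 1 well above. At the translocon, Ssr3 was at 341 and 344 CPM against 376 and 387 CPM (−0.15, SE 0.04, adjusted p = 0.00165) and Sec61g at 33.5 and 33.8 CPM against 38.4 and 38.6 CPM (−0.2, SE 0.07, adjusted p = 0.0264, lost in 5 of 9 alternatives). Ssr1 was higher by 0.15, and Sec61a1 (212 and 215 CPM against 223 and 219.8 CPM) was not called.

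Whether withdrawal had a different effect without Pcyt2 was tested as the interaction of the cDNA with doxycycline. It was called positive for 4 of the 32 genes (12.5%) and negative for 2 (6.25%), against 12.8% and 12.4% of all genes, with a median of 0.01 against 0.02. Without replicate 2 of the cDNA cells on doxycycline 3 genes were called. The largest was Herpud1, which rose 2.62-fold off the drug in sgPcyt2 cells (1.39, SE 0.06, adjusted p = 5.98e-25) and 1.59-fold with the cDNA (0.67, SE 0.06, adjusted p = 1.11e-13). The difference of the changes was 0.72 (SE 0.09, adjusted p = 6.41e-09). Sel1l rose by 0.61 without and 0.33 with the cDNA (difference 0.28, SE 0.07, adjusted p = 0.00155). Edem1 fell in sgPcyt2 cells by 0.36 and was at 0.05 (adjusted p = 0.372) with the cDNA, a difference of −0.41 (SE 0.08, adjusted p = 2.89e-05). These 3 genes of the degradation machinery kept the call in every alternative run. Ssr3 (−0.18, adjusted p = 0.00944) lost it without replicate 2 of the cDNA cells on doxycycline (0.0526). Ostc (0.26, adjusted p = 0.0199) lost it in 6 of 13 alternatives (up to 0.147) and P4hb (0.15, adjusted p = 0.0338) in 7 of 13 (up to 0.3).

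No sensor and no chaperone passed the interaction test with all libraries and the filter on low counts. Creld2 was called without the filter and without replicate 2 of the cDNA cells off doxycycline (adjusted p down to 0.0047). Without sgPcyt2 replicate 2 on doxycycline, Hsp90b1 (0.0091) and Hyou1 (0.0463) were called. The difference was 0.0 for Hspa5 (SE 0.06, adjusted p = 0.979), 0.3 for Dnajb9 (SE 0.14, adjusted p = 0.114), −0.17 for Manf (adjusted p = 0.127) and −0.24 for Creld2 (adjusted p = 0.0865). Trp53 itself rose less in sgPcyt2 cells, with an interaction of −1.21 (SE 0.12, adjusted p = 9.66e-12), and its part in the interactions of Herpud1, Edem1 and Sel1l was not tested.

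**Figure D5:**
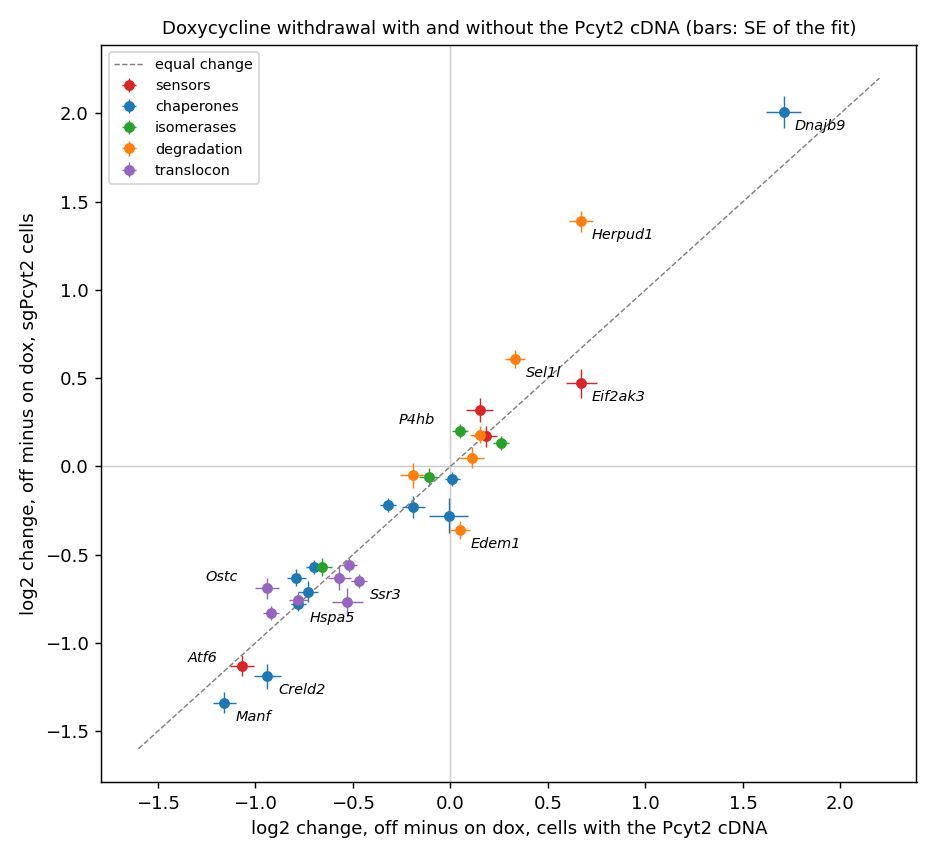
Log2 change on withdrawal of doxycycline for the 32 tested genes, in cells with the Pcyt2 cDNA (horizontal) and in sgPcyt2 cells (vertical), with standard errors, the line of equal change and roles as colours. Herpud1 (0.67 and 1.39) lies above the line and Edem1 (0.05 and −0.36) below it, while Hspa5 (−0.78 in both) lies on it.

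The other genes of the pathway, 87 symbols from a list chosen beside the members, were counted in the same fits. They stand on 88 rows, since Ddit3 has 2. On withdrawal 31 of 86 tested rose and 37 fell in sgPcyt2 cells (36% and 43%, median −0.05), beside 39.2% and 37.1% of all genes. With the cDNA 32 rose and 35 fell (37.2% and 40.7%, median −0.02), beside 37.3% and 36.3%. In unedited KPsh cells 40 of 87 rose and 24 fell (46% and 27.6%, median 0.07), beside 33.1% and 31.7%. With p53WT 31 of 88 rose and 25 fell (35.2% and 28.4%, median 0.0), beside 25.5% and 25.1%. The 10 genes of the PERK and ATF4 branch, on 11 rows, split within each withdrawal. In sgPcyt2 cells 4 of the 11 rose and 7 fell (median −0.73), with Sesn2, a stress-induced regulator of mTORC1 and known p53 target, at 1.92 and Ddit3, which encodes CHOP, at 1.5. Asns, an amino acid synthesis target of ATF4, fell by 1.31. With the cDNA 4 rose and 6 fell (median −0.69), and Atf4 itself fell by 1.29. Of the 21 other degradation genes, 10 were higher and 4 lower in sgPcyt2 cells (47.6% and 19%), with a median of −0.01. With the cDNA 11 were higher and 6 lower (52.4% and 28.6%, median 0.1), and in unedited KPsh cells 11 were higher and 4 lower (52.4% and 19%, median 0.15). Os9 and Erlec1, the lectins that hand glycoproteins to Sel1l, rose by 1.79 and 1.63 in sgPcyt2 cells. Of 28 other translocation genes 18 fell and 4 rose in sgPcyt2 cells (median −0.22), and 14 fell and 7 rose with the cDNA (median −0.13), whereas 7 fell and 13 rose in unedited KPsh cells (median 0.08).

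In the KPnull cells, 10 of the 21 other degradation genes (47.6%) were lower with TAD1m than with p53WT and 0 higher (median −0.19). Os9 was lower by 0.72 (SE 0.06, edgeR adjusted p = 1.97e-07). Over all 88 other rows tested, 8 were higher and 36 lower with TAD1m than with p53WT (9.09% and 40.9%, median −0.14). Of all genes, 20.4% were higher and 18.7% lower. Between sgPcyt2 cells and those with the cDNA, 6 of 86 were higher and 8 lower on doxycycline (6.98% and 9.3%, median −0.03), beside 8.4% and 10% of all genes. Off it 12 were higher and 15 lower (14% and 17.4%, median −0.02), beside 16.3% and 16.8%. The largest of these differences was that of Dnajc10, the ER reductase ERdj5, which works with Edem1 and BiP in degradation. It was 1.38 higher in sgPcyt2 cells off doxycycline (SE 0.04, adjusted p = 7.36e-27) and 0.25 higher on it (SE 0.05, adjusted p = 3.67e-05), with an interaction of 1.13 (SE 0.06, adjusted p = 1.89e-18). The interaction was called positive for 14 of the 86 and negative for 11 (16.3% and 12.8%, median −0.03), beside 12.8% and 12.4% of all genes.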

How the data were processed

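Messenger RNA was sequenced from 24 libraries in 3 tables. Each value is an expected count per gene, deposited by the authors as a multiple of 0.5 and not normalized. Per the submitters' processing notes, STAR 2.6.1c and HOMER were used on mm10. Per the file headers, HOMER counted reads on both strands over exons of GENCODE vM25. Per the labels' protocols, libraries were made with a stranded poly(A) kit.

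Columns were matched to samples by name, those of KPsh cells off doxycycline and of the cDNA cells by elimination. Counts were rounded, which changed no total by more than 0.0533%. Within each table, genes were kept with filterByExpr (13990, 15075 and 14916 genes), scaled with TMM factors and tested on group means by the quasi-likelihood method of edgeR (version 4.0.16, under R 4.3.3 with limma 3.58.1), with 4, 5 and 4 residual degrees of freedom and Benjamini-Hochberg adjustment over all genes. A call is an adjusted p under 0.05. Scripts were tested on simulated data. CPM use the TMM-adjusted size, levels per kilobase the deposited length, and log2 changes carry the standard error of the fit. Replicate pairs differed by more than sampling noise (chi-square per degree of freedom 1.797 to 7.689).

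The members, roles and lists were chosen with earlier results of these data known. Values in every library are given for Hspa5, Hsp90b1, Xbp1, Ern1, Atf6, Eif2ak3, Herpud1, Dnajb9 and Sec61a1 and for up to 4 further called members with the largest change in a comparison; other genes of the pathway are named from the 3 largest called changes of a list with at least 5 CPM. Members named beyond it, such as Canx, Derl1 and Sel1l in some comparisons, were chosen after their values were seen. Alternatives were RLE factors, library totals, DESeq2 1.42.0, no filter, a replicate block and leaving out each library. In KPnull cells, deviations of same-numbered libraries correlated from −0.204 (TAD12m and p53WT) to 0.354 (TAD12m and vector), so some libraries deviated together. The correlations ran from −0.126 to −0.1 in unedited KPsh cells and from −0.07 to 0.011 in the Pcyt2 set. Since they were not positive throughout, numbers were not taken as pairs in the main fit. Exon overlap was read from GENCODE vM21.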

Additional observations from a re-analysis of the deposited data

Results flagged for a closer look

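For 6 of the 32 genes the change on withdrawal of doxycycline differed between sgPcyt2 cells and the cells with the Pcyt2 cDNA, by edgeR's interaction test with n = 2 libraries per group. Positive calls made up 12.5% and negative calls 6.25% of the 32, against 12.8% and 12.4% of all genes tested, so neither share was above background. The difference of the log2 changes, sgPcyt2 minus cDNA, was 0.72 for Herpud1, 0.28 for Sel1l, 0.26 for Ostc and 0.15 for P4hb. It was −0.41 for Edem1 and −0.18 for Ssr3. Herpud1, Sel1l and Edem1 were called in all 13 alternatives run, while Ostc, P4hb and Ssr3 were not. Trp53 had an interaction of −1.21 in the same test, and its part in these differences was not tested.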

How the results depend on the processing

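The 12 counts of called genes and 147 values of genes named by rule in a comparison were computed again under the alternatives, which gave 1543 values. All but those given here kept their direction and, for counts, stayed within 1.5 times the main count, except that single genes lost a call in 70 and gained one in 7. Over all 32 genes and 12 comparisons (3712 alternative values), called values lost the call in 169 and others gained one in 32. There, 171 values in 86 pairs of gene and comparison changed sign, 0 of them called with either setting, and they lay between −0.16 and 0.19. With library totals, Hspa5 and Hsp90b1 were each at −0.03 in KPsh cells, Atf6 at −0.01 with p53WT, Herpud1 at 0.00 with TAD1m, Dnajb9 at 0.00 with TAD12m and Sec61a1 at 0.01 for TAD1m against p53WT. Without the filter, Herpud1 with TAD1m and Dnajb9 with TAD12m were at 0.00, Dnajb9 and Sec61a1 between sgPcyt2 and cDNA cells on doxycycline at 0.01, and the interaction of Hspa5 at −0.04. With RLE factors and with DESeq2, Hsp90b1 for TAD1m against p53WT and the interaction of Hspa5 were at 0.00.

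Leaving out 1 library at a time gave −0.02 to 0.04 for Hspa5 and −0.04 to 0.07 for Hsp90b1 in KPsh cells. Against the vector, p53WT gave 0.00 to 0.13 for Hspa5 and −0.02 to 0.08 for Atf6, and TAD1m gave −0.12 to 0.09 for Herpud1 and −0.02 to 0.15 for Dnajb9. TAD12m gave −0.12 to 0.01 for Hspa5, −0.09 to 0.00 for Hsp90b1, −0.18 to 0.02 for Herpud1 and −0.24 to 0.19 for Dnajb9. Against p53WT, TAD1m gave −0.03 to 0.03 for Hsp90b1, and TAD2m gave −0.02 to 0.08 for Atf6, −0.01 to 0.13 for Eif2ak3 and −0.04 to 0.01 for Sec61a1. Between sgPcyt2 and cDNA cells on doxycycline, Hsp90b1 ranged from −0.09 to 0.03, Eif2ak3 from 0.00 to 0.21, Dnajb9 from −0.06 to 0.02 and Sec61a1 from −0.03 to 0.00. The interaction ranged from −0.08 to 0.03 for Hspa5, −0.09 to 0.07 for Ern1 and −0.14 to 0.00 for Atf6.

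The count of called genes ranged from 11 to 15 for TAD2m against the vector (11 without TAD2m replicate 2), from 2 to 3 for sgPcyt2 against cDNA cells on doxycycline, from 7 to 10 off it and from 3 to 9 for the interaction, where leaving out a library leaves fewer samples. With DESeq2, 2 genes were called on doxycycline, and the cause was not tested. With the replicate number as a block, the counts were 15 in KPsh cells, 16, 19, 17 and 1 for p53WT, TAD1m, TAD2m and TAD12m against the vector, 17 for TAD1m and 0 for TAD2m against p53WT, 4 on and 13 off doxycycline for sgPcyt2 against cDNA cells, 28 and 26 for the withdrawals and 6 for the interaction. A pairing of crossed numbers, chosen after seeing the data, gave 16 for p53WT and 15 for TAD2m. Depth limits Derl3, which was never tested, and groups of 2 libraries limit the smaller differences.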

Other observations

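The genes below lie outside the 33 and were named because their called changes were among the 3 largest of their list. Their size follows from that choice. Over all the other pathway genes tested, the median on withdrawal was −0.05 in sgPcyt2 cells, −0.02 with the cDNA and 0.07 in unedited KPsh cells. Crebrf, a negative regulator of the unfolded protein response, was higher off doxycycline by 3.93 on the log2 scale in sgPcyt2 cells (SE 0.11, edgeR adjusted p = 5.88e-32), by 3.63 with the cDNA (SE 0.11, adjusted p = 3.27e-30) and by 2.12 in unedited KPsh cells (SE 0.13, adjusted p = 2.23e-12). Wfs1, an ER membrane protein that restrains ATF6 signalling, was higher by 0.82, 1.35 and 2.07 in the same comparisons. Its rise was smaller in sgPcyt2 cells than with the cDNA (edgeR interaction −0.53, SE 0.11, adjusted p = 0.000332). Trp53 also rose less in sgPcyt2 cells, and its part in this difference was not tested. Fkbp14, a prolyl isomerase of the ER, was higher by 2.57 and 2.03 in the edited cells and by 0.49 in the unedited ones. Creb3, a membrane-bound transcription factor related to ATF6, was higher by 0.7 and 0.91 in the edited cells, by 1.21 in unedited KPsh cells and by 1.33 with p53WT against the vector. These genes belong to lists chosen with earlier results of these data known.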
